A study of Mus musculus with 2 samples.

Results

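The genes for mitochondrial protein import comprised 38 of the 21938 protein-coding genes of the GENCODE M21 annotation on chromosomes 1 to 19, X and Y. They were chosen by symbol, under a rule set with earlier results of these data known. The rule takes all Timm and Tomm genes with a number, together with Samm50, Mtx1, Mtx2, Mtx3, Pam16, Dnajc19, Hspa9, Grpel1, Grpel2, Pmpca, Pmpcb, Chchd4 and Gfer. GABPα binding at them was read from ChIP-seq of CD4+ T cells, which were purified with magnetic beads from wild-type C57BL/6 mice, with no treatment named. Chromatin was precipitated with the antibody sc-22810X against GABPα. The experiment had 1 ChIP library and 1 input DNA library of the same cell type, and the ages and number of the mice are not given in the sources used here. The deposited list holds 6782 peak intervals and no height, fold enrichment or q value, so depth is unknown and each value describes this library alone, without a replicate check or a p-value. A gene was taken to have a peak when an interval lay within 1000 bp of the start of any of its annotated transcripts.

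Most mitochondrial proteins are encoded in the nucleus, made in the cytosol and imported as precursors. The TOM complex of the outer membrane recognises precursors and passes them through its pore, while the SAM complex, with the metaxins, inserts barrel-shaped proteins into that membrane. Small TIM chaperones escort hydrophobic carrier proteins across the intermembrane space to the TIM22 complex of the inner membrane. Precursors with a presequence pass through the TIM23 complex, an ATP-driven motor pulls them into the matrix, and a peptidase removes their targeting sequence. GABP, first described as nuclear respiratory factor 2, binds sites with a GGAA core through the Ets domain of GABPα and is known as an activator of nuclear genes for mitochondrial proteins.

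GABPα peaks lay at 24 of the 38 import genes (63.2%, Wilson 95% interval 47.3 to 76.6), and no import gene shared its peak with another import gene. The background was 17.7% of all protein-coding genes (3880 of 21938), a count that includes genes whether or not T cells express them, since expression was not analysed here. By part of the pathway, peaks lay at 11 of 14 outer membrane genes (78.6%, 52.4 to 92.4), at 9 of 16 genes of the intermembrane space and inner membrane (56.2%, 33.2 to 76.9) and at 4 of 8 genes of the motor and processing (interval 21.5% to 78.5%). These intervals overlap widely, and the difference between the parts was not tested. The peak covered a transcript start at 22 import genes (57.9%, 42.2 to 72.1), beside 13.9% of protein-coding genes, among them all 11 outer membrane genes with a peak. Intervals cover counting error only, and genes of a pathway are not independent replicates.

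**Figure D1:**
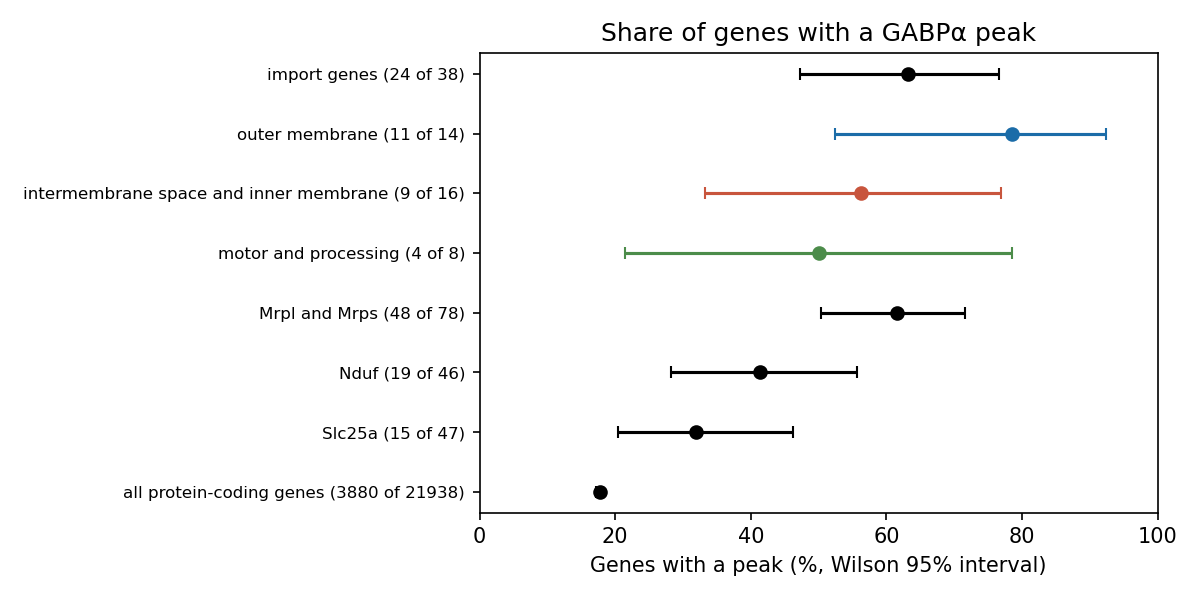
Percentage of genes with a GABPα peak within 1000 bp of a transcript start (x axis) for the import genes, the 3 parts of the pathway, other mitochondrial gene families and all protein-coding genes (y axis), with Wilson 95% intervals as bars. The interval of the import genes, 47.3% to 76.6%, lies above the 17.7% of all protein-coding genes, and those of the 3 parts overlap each other.

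Sequence at the peaks is shown first for the outer membrane genes, because their peaks include the receptors and the metaxins. Each line gives 29 bases of mm10 around the copy of CCGGAAG nearest the peak midpoint, read 5′ to 3′ on the strand that holds the motif, with the motif in capitals. CCGGAAG is the GABP motif searched throughout, on both strands, and it contains the GGAA core.
Tomm70a (chr16:57121695-57121723, minus strand): gccagaggtcaCCGGAAGcccggggcatg
Tomm22 (chr15:79670813-79670841, plus strand): ccggctcgcttCCGGAAGacgctctgtcc
Tomm20 (chr8:126945845-126945873, minus strand): gtcctcgcgcgCCGGAAGtcctcgcgctc
Mtx1 (chr3:89213900-89213928, plus strand): cgctctctgacCCGGAAGcaccttctcgt
Mtx2 (chr2:74825807-74825835, plus strand): tgtcagcgacgCCGGAAGtgcttggtcgg
Mtx3 (chr13:92844745-92844773, minus strand): acctctgtcacCCGGAAGtactcgtaccg
All these peaks but that of Mtx1 cover the gene start, and the copies shown for these 5 genes lie from position -34 (Tomm22) to 18 (Mtx2), counted from the gene start on the gene strand with negative values upstream.

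For the intermembrane space, the inner membrane and processing, the same windows are shown for the peaks that held the motif, to set small TIM genes beside the channel and the peptidase. The peak of Grpel2 held it too but is given without sequence.
Timm10b (chr7:105640470-105640498, minus strand): tcagagtcgccCCGGAAGtaaactctcac
Timm13 (chr10:80900780-80900808, plus strand): gaccatacgccCCGGAAGccaagccgggg
Timm10 (chr2:84826994-84827022, minus strand): tcttctttgatCCGGAAGaaaacgccgac
Timm8b (chr9:50603878-50603906, plus strand): tgaagcgtgaaCCGGAAGgcaggagacgg
Timm23 (chr14:32201921-32201949, plus strand): ctgtgtgcggcCCGGAAGtgggaagcgcg
Pmpca (chr2:26389284-26389312, plus strand): ggctcggcgggCCGGAAGccagcgccgaa
Pmpcb (chr5:21737133-21737161, plus strand): ggagtcatgacCCGGAAGtacatctccac
Grpel1 (chr5:36464970-36464998, minus strand): ttctgggagccCCGGAAGgtgaggaggtg
The longer form CCGGAAGT was in 9 of the 24 import gene peaks, those of Tomm20, Tomm70a, Mtx2, Mtx3, Timm10, Timm10b, Timm23, Pmpcb and Grpel2, and Mtx2 held it in both of its copies.

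Among outer membrane genes, the receptors and the metaxins all had a peak, while the related genes Tomm20l and Tomm40l, grouped apart from them, had none. All 3 surface receptors of the TOM complex had a peak. Tomm70a (ENSMUSG00000022752.9), which binds precursors that carry internal targeting signals, had the widest peak of the outer membrane genes, 408 bp at chr16:57121503-57121910. It was at the 97.6th percentile of widths in the list and held 2 copies of CCGGAAG, at positions -66 and 6 from the gene start. The peak at Tomm22, the central receptor, was 292 bp wide (chr15:79670701-79670992) and held 3 copies. At Tomm20, which recognises presequences, it was 227 bp wide (chr8:126945748-126945974) with 1 copy, at position -15.

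The pore of the TOM complex and those of its small subunits that had a peak lacked CCGGAAG in it. Tomm40 (ENSMUSG00000002984.17), the pore itself, had a peak of 312 bp over its start (chr7:19715394-19715705, 92.8th percentile) without CCGGAAG or CGGAAG. Of the 3 small subunits, Tomm5 had a peak of 215 bp (chr4:45108010-45108224) that also held neither. The peak at Tomm6 was 224 bp wide and lay 188 bp inside the gene (chr17:47687975-47688198), over the start of another annotated Tomm6 transcript, and held 2 copies of CGGAAG but no CCGGAAG. Tomm7, which modulates the stability of the complex, had no peak: the nearest interval was 6271 bp from its start, although CCGGAAG stands at position 29.

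All 4 genes of the SAM complex and the metaxins had a peak. Samm50 (ENSMUSG00000022437.7), the channel of the SAM complex, had 267 bp over its start (chr15:84192061-84192327) with a single CGGAAG and no CCGGAAG. The peak of Mtx2 was 219 bp wide (chr2:74825714-74825932) and held 2 copies, at positions -13 and 18, both on the gene strand. Mtx3 had 137 bp (chr13:92844694-92844830), the narrowest peak of the outer membrane genes, with a copy at position -1. The peak of Mtx1 was 179 bp wide (chr3:89213832-89214010) and lay 13078 bp inside the gene as annotated. It covered an inner transcript start, and 7 of the 18 annotated Mtx1 transcripts start within 100 bp of 89213840. Tomm34, whose product is mainly cytosolic, had 169 bp over its start (chr2:164071100-164071268) with 2 copies.

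**Figure D2:**
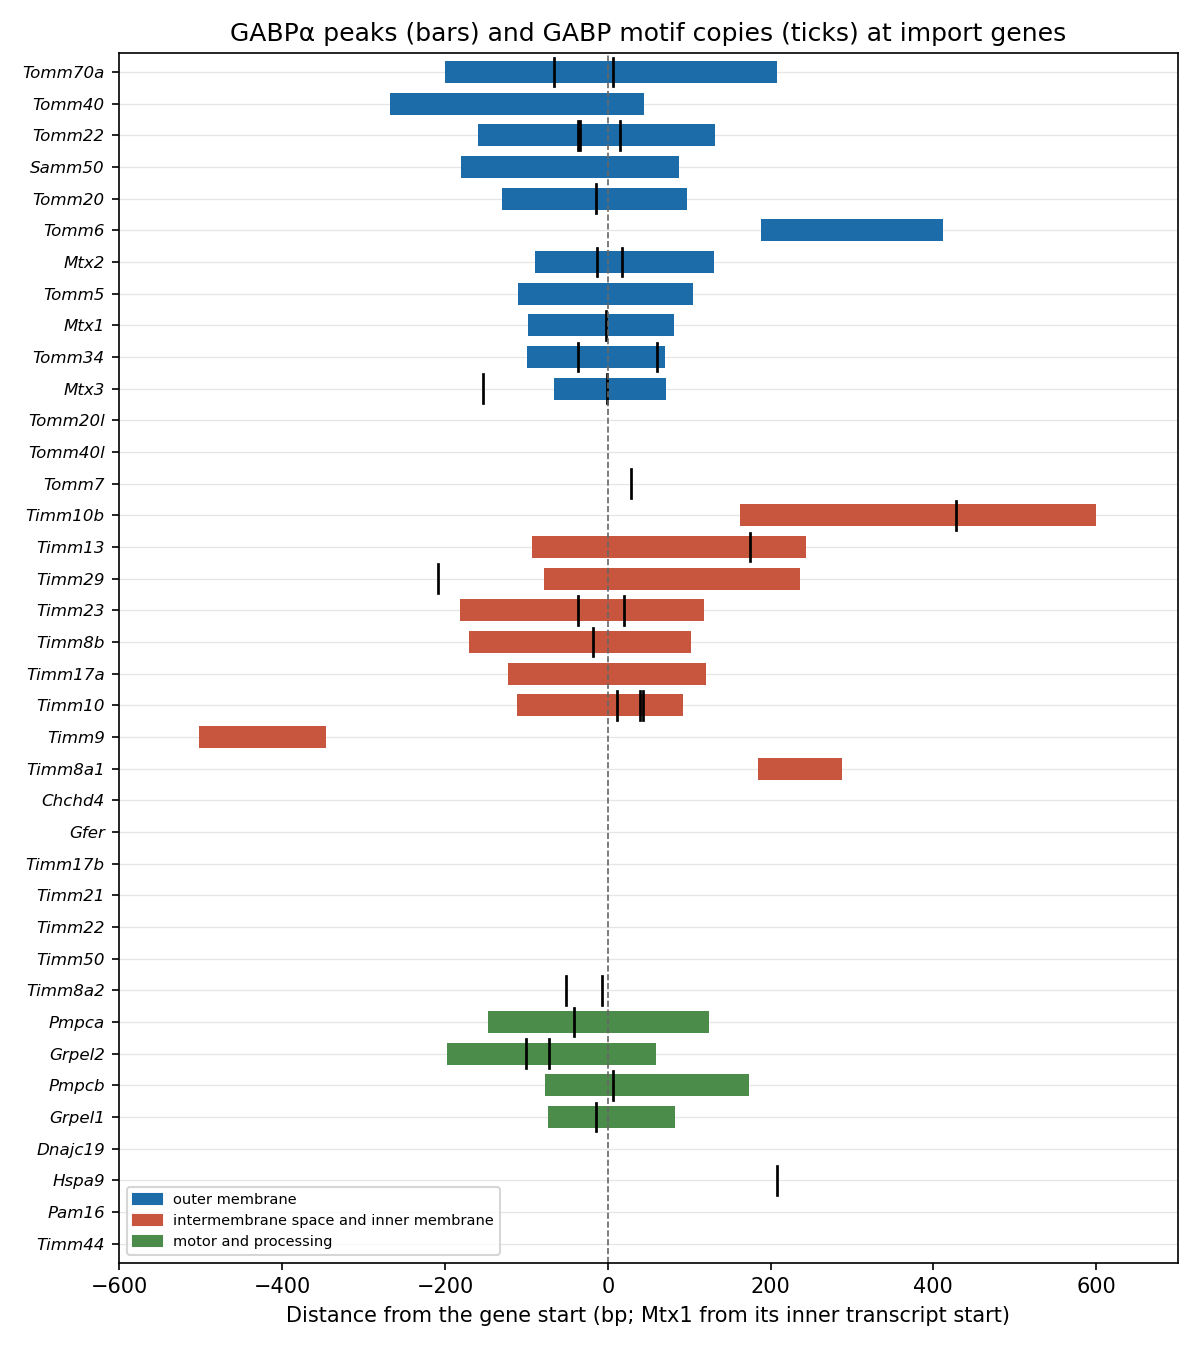
Position of the GABPα peak (bars, coloured by part) and of every copy of the GABP motif in a peak or within 250 bp of the gene start (ticks) at the 38 import genes, in bp from the gene start on the gene strand; Mtx1 is drawn from the inner transcript start. Of the 24 peaks, 19 cover the gene start. The bar of Mtx1 is not among them and crosses the dashed line only because it is drawn from the inner start. Tomm7, Timm8a2 and Hspa9 have ticks without a bar.

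In the intermembrane space, the small TIM chaperones and their relative Timm10b had peaks at 6 of 7 genes. Timm10b (ENSMUSG00000089847.8), a TIM22 subunit, had the widest peak of all import genes, 438 bp at chr7:105640218-105640655 (98.3rd percentile), beginning 162 bp inside the gene and covering the starts of another Timm10b transcript, of the opposite-strand gene Arfip2 and of Gm45799, annotated as protein-coding on the same strand. Timm13 had 336 bp (chr10:80900727-80901062) with a copy of CCGGAAG at position 175. The peak of Timm8b was 272 bp wide (chr9:50603740-50604011) with a copy at position -18, and that of Timm10 was 203 bp wide (chr2:84826886-84827088) with 3 copies, at positions 11, 40 and 43. The remaining 2 lay off the gene start. Timm9 had 156 bp at chr12:71137031-71137186, which ended 347 bp before its start. Timm8a1 had 104 bp at chrX:134541578-134541681, the smallest width that occurs in the list, 184 bp inside the gene. These are the 2 import gene peaks that cover no transcript start, and neither held CGGAAG.

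Other genes of the intermembrane space and inner membrane had fewer peaks. Both genes of the disulfide relay lacked one, Chchd4, the import receptor that oxidises small TIM proteins, and Gfer, the sulfhydryl oxidase that recycles it. In the TIM22 complex, Timm29 had a peak of 314 bp (chr9:21592644-21592957) without CGGAAG, and Timm22, the carrier translocase itself, had none. In the TIM23 channel 2 of 5 genes had a peak: Timm23 (ENSMUSG00000013701.13), the channel subunit, with 300 bp (chr14:32201781-32202080) and 2 copies of CCGGAAG, and Timm17a with 243 bp (chr1:135313658-135313900) and a CGGAAG at position -3. Timm17b, Timm21 and Timm50 had none.

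The motor and the processing peptidase divided. Grpel1 and Grpel2, alternative nucleotide exchange factors of the motor chaperone, both had a peak, of 156 bp (chr5:36464925-36465080) and 257 bp (chr18:61726267-61726523). Hspa9, the motor chaperone itself, and its partners Timm44, Pam16 and Dnajc19 had none, which left 2 of 6 motor genes with a peak. The matrix processing peptidase had a peak at both subunit genes, 271 bp at Pmpca (chr2:26389192-26389462) and 251 bp at Pmpcb (chr5:21737064-21737314), each with 1 copy of CCGGAAG. The counts by complex were set out after the values were seen and, at 1 to 7 genes each, are descriptions.

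The median width of the 24 peaks was 247 bp (range 104 to 438, quartiles 197 and 294). Of them, 17 were wider than the median of 210 bp over the 3459 peaks near protein-coding gene starts (quartiles 159 and 267). Peaks near protein-coding gene starts are here all intervals within 1000 bp of a start of any annotated transcript of such a gene. The median was 224 bp for outer membrane genes, 272 bp for the intermembrane space and inner membrane and 254 bp for the motor and processing, over 11, 9 and 4 peaks. By annotation, 13 peak midpoints lay upstream of the import gene, 8 in a 5′ UTR, 2 in sequence that an annotated transcript reads as coding (Pmpcb and Mtx1) and 1 in an exon of a non-coding transcript (Mtx3). Genes of the intermembrane space and inner membrane had both the widest and the narrowest peak. Of the 24 peaks, 0 were mostly made of soft-masked repeat sequence, which allows a share of up to 12.5% where 3 counts are taken as the limit of a count of 0 (Wilson upper limit 13.8%), beside 1.73% of the peaks near protein-coding gene starts.

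**Figure D3:**
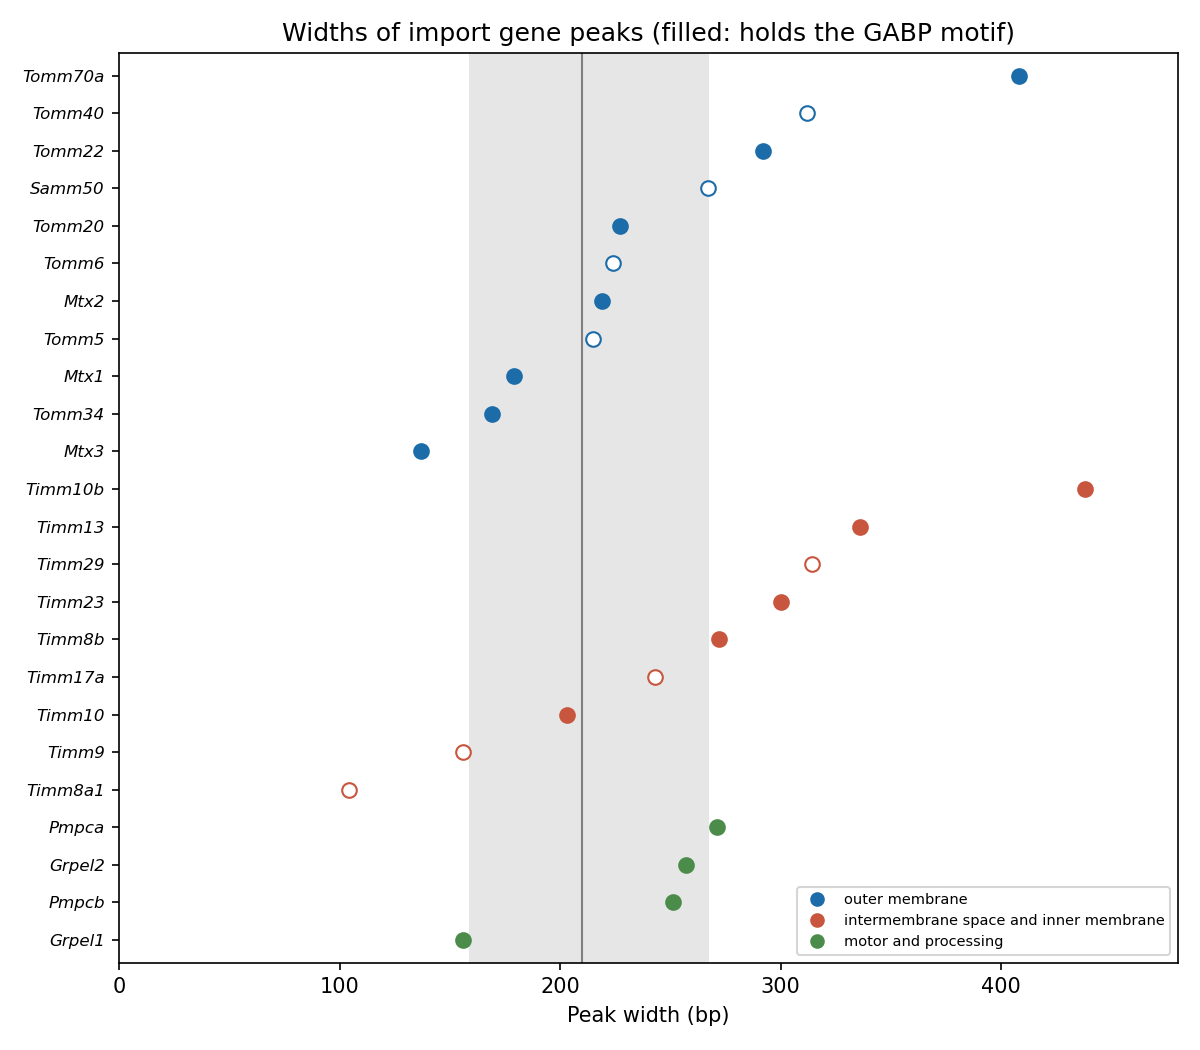
Width in bp (x axis) of the GABPα peak at each of the 24 import genes with a peak (y axis, coloured by part), filled where the peak holds the GABP motif. The grey band and line mark the quartiles (159 and 267 bp) and median (210 bp) of the peaks near protein-coding gene starts; Timm10b at 438 bp and Tomm70a at 408 bp stand farthest right and Timm8a1 at 104 bp farthest left.

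CCGGAAG was in 16 of the 24 import gene peaks (66.7%, 46.7 to 82.0), beside 57.2% of the peaks near protein-coding gene starts. It was in 7 of 11 outer membrane peaks, 5 of 9 of the intermembrane space and inner membrane and 4 of 4 of the motor and processing. At least 2 copies were in 7 import gene peaks (29.2%, 14.9 to 49.2), those of Tomm22, Tomm34, Tomm70a, Mtx2, Timm10, Timm23 and Grpel2, beside 13.9% of the peaks near protein-coding gene starts. The 7 peaks had a median width of 257 bp, beside 274 bp for such peaks near protein-coding gene starts. The 9 with 1 copy had 251 bp (beside 217 bp) and the 8 without a copy 234 bp (beside 185 bp). The 25 copies lay on the gene strand in 12 cases, and 13 are annotated as upstream of the gene, 11 in a 5′ UTR and 1, at Mtx1, in sequence that an annotated transcript reads as coding. Position was narrow: 21 of the 25 lay from -100 to 50 bp of the gene start, and in 15 of the 16 peaks the nearest copy was within 50 bp of the peak midpoint. In 1641 of 3186 pairs of a protein-coding gene and a copy in its peak, the copy lay from -100 to 50. A copy in a peak shared by several genes was counted for each of them, so this share has another unit than the 21 of 25. The nearest copy was within 50 bp of the midpoint in 85.3% of 1979 peaks near protein-coding gene starts.

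The CCGGAAG copies near import gene starts were mostly under a peak. Within 250 bp of the gene start, 18 of 38 import genes (47.4%, 32.5 to 62.7) held the motif, beside 14.5% of all protein-coding genes. Of the 29 copies there, 23 lay in a peak (79.3%, 61.6 to 90.2), beside 60.8% of 3976 copies at all protein-coding genes. With 2 or more copies, 8 of 9 import genes had a peak, beside 87.9% of protein-coding genes. With 1 copy the values were 7 of 9 and 55.8%. Without a copy they were 9 of 20 (45.0%, 25.8 to 65.8) and 10.1%. The 9 genes were Timm10b, Timm17a, Timm8a1, Timm9, Mtx1, Samm50, Tomm40, Tomm5 and Tomm6. A gene without a copy near its start can still have the motif in its peak. Timm10b and Mtx1 did, at positions 428 and 13174. The peaks of Timm10b, Mtx1, Tomm6, Timm8a1 and Timm9 did not cover the gene start.

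**Figure D4:**
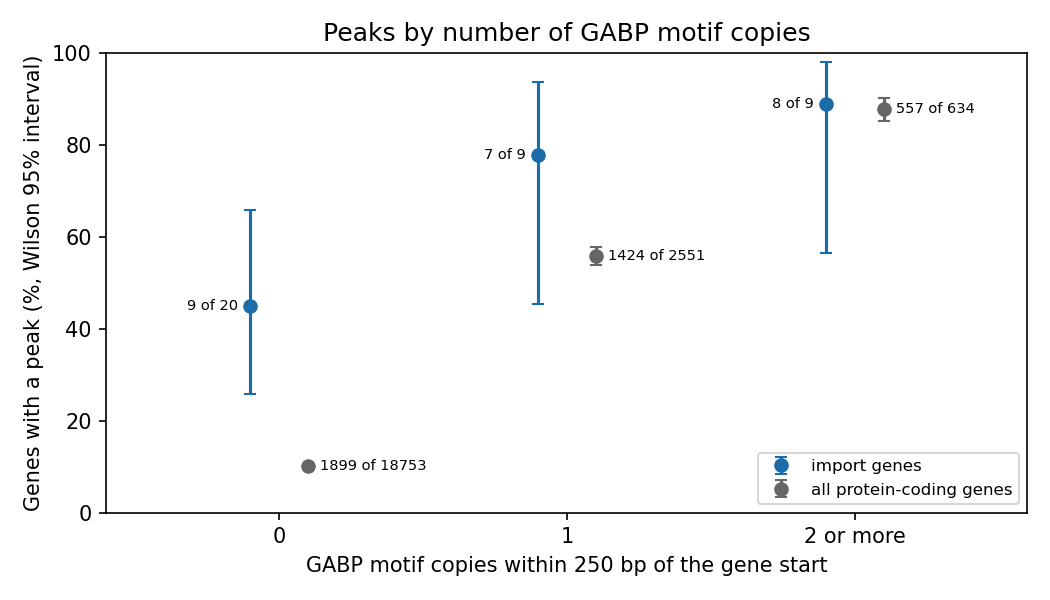
Percentage of genes with a GABPα peak (y axis) by the number of GABP motif copies within 250 bp of the gene start (x axis), for import genes (blue) and all protein-coding genes (grey), with Wilson 95% intervals as bars and gene counts beside the points. With 2 or more copies both sets lie near 88%, at 8 of 9 and 557 of 634 genes, and without a copy the import genes lie at 45.0% and all protein-coding genes at 10.1%.

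Copies without a peak were few. The 6 copies outside peaks were at Tomm7 (1), Timm8a2 (2), Hspa9 (1), Mtx3 (1, at -153, beside a copy in the peak) and Timm29 (1, at -209). The windows below show the copy nearest the start for the genes without a peak, Hspa9 excepted.
Tomm7 (chr5:23844118-23844146, plus strand): gtgtccggatcCCGGAAGggagaggagct
Timm8a2 (chr14:122034653-122034681, minus strand): cgagccagggaCCGGAAGtgccccaccca
Timm8a2 holds its copies at positions -51 and -7, and both read CCGGAAGT; the nearest interval of the list was 24852 bp away. Timm8b and Tomm20, with 1 copy each near the start, had a peak over it. Within 250 bp of the start, every 36-base sequence of Timm8a2 and 91.4% of those of Tomm7 are unique in the genome.

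Import genes without a peak numbered 14, and the interval nearest the gene start was 6271 to 361656 bp away. No gene was near the limit of 1000 bp: the farthest peak counted, at Timm9, was 347 bp from a start, and the nearest uncounted peaks to any annotated transcript start were 6271 bp for Tomm7, 7002 bp for Hspa9 and 7607 bp for Timm44. Enrichment that stayed under the peak caller's cutoff at these genes is not in the list. The GC content from 250 bp before to 50 bp after the gene start had a median of 57.3% in genes with a peak and 56.2% in those without. The 38 genes together had 56.7%, beside 55.0% for all protein-coding genes. Among protein-coding genes the share with a peak was 7.74% at a GC content below 50%, 17.5% from 50% to 55%, 22.5% from 55% to 60%, 27.4% from 60% to 65%, 27.3% from 65% to 70% and, above, 461 of 2307 genes (18.4% to 21.7%). In the same order, import genes had a peak at 1 of 1, 9 of 14, 3 of 7, 6 of 10, 3 of 3 and 2 of 3 genes.

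Some related genes differed. Tomm20, Tomm40, Timm17a and Timm8b had peaks over their starts, while Tomm20l, Tomm40l, Timm17b and Timm8a2 had none. Timm8a1, the other Timm8a gene, had a peak of 104 bp that lay 184 bp from its start. Mtx1, Mtx2 and Mtx3, in contrast, all had a peak, as did Grpel1 and Grpel2. Because reads of 36 bp can match near-identical copies, the share of 36-base sequences that occur 1 time in the genome was computed. It was 100% in 19 of the 24 peaks. It was 90.3% at Tomm22, 91.1% at Tomm5, 75.0% at Tomm20, 72.8% at Timm23 and 27.5% at Timm8a1. The part of shared reads in these intervals was not tested.

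Several import genes share their peak with a neighbour. A protein-coding gene on the opposite strand started within 1000 bp of 11 import genes, and 8 of the 11 had a peak (72.7%, 43.4 to 90.3), beside 49.6% of protein-coding genes so placed. Without such a neighbour the values were 16 of 27 (59.3%, 40.7 to 75.5) and 13.8%. In each of the 8 cases the same interval was within 1000 bp of a start of both genes. The partners were Parg, 51 bp from the Timm23 start, Entr1, 23 bp from Pmpca, Yipf2, 106 bp from Timm29, Arfip2, 360 bp from Timm10b, 2700049A03Rik, 164 bp from Timm9, Frs3, 644 bp from Tomm6, Stk4, 847 bp from Tomm34, and Sdhd, 98 bp from Timm8b. Sdhd encodes a membrane subunit of succinate dehydrogenase, the respiratory complex II. The interval lay 183 bp from the nearest start of 2700049A03Rik, 778 bp from that of Stk4 and 832 bp from that of Frs3. For the other partners it covered a start. Stk4 had 2 peaks, 1 of them shared. Chchd4 with Tmem43, Gfer with Noxo1 and Timm17b with Pqbp1 were the 3 pairs without a peak at either gene. When a peak counted only for the nearest protein-coding gene, Timm23, Timm29, Timm9 and Pmpca lay farther from the midpoint than another gene and 20 of 38 remained, beside 3282 of the 21938 protein-coding genes under that assignment (14.5% to 15.4%).

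Other families of mitochondrial genes, set beside the import genes by symbol, had peaks as follows. They lay at 61.5% of 78 mitochondrial ribosomal protein genes (50.4 to 71.6), 41.3% of 46 Nduf genes of respiratory complex I (28.3 to 55.7) and 31.9% of 47 Slc25a carrier genes (20.4 to 46.2), whose products are themselves clients of the TIM22 pathway. The interval of the import genes, 47.3 to 76.6, overlaps those of the ribosomal and Nduf genes and lies above that of the Slc25a genes, and these differences were not tested. In genes without CCGGAAG within 250 bp of the start, the share with a peak was 46.3% for the ribosomal, 27.8% for the Nduf and 17.1% for the Slc25a genes, beside the 45.0% of import genes. Motifs of other factors were counted too. An NRF1 motif (GCGCA, then any base, then GCGC) was in 3 of the 24 import gene peaks (Tomm20, Timm8b and Timm29), beside 8.70% of the peaks near protein-coding gene starts, and AAGATGGCG, a YY1 motif, in those of Mtx1 and Mtx3, beside 4.13%. GGGCGG, an Sp1 motif, was in 62.5% and 60.7%. In the windows from 250 bp before to 50 bp after the start of all protein-coding genes these motifs were in 5.99%, 1.70% and 43.0%, and CCGGAAG was in 10.8%. In the same windows of the 38 import genes they were in 15.8%, 7.89% and 60.5%, and CCGGAAG in 42.1%. The NRF1 motif was there at Tomm20 and Timm8b, and also at Chchd4, Timm21, Pam16 and Tomm7, which lacked a peak. AAGATGGCG was there at Mtx3, and also at Timm50 and Tomm40l, which lacked a peak. A match of letters is a description and not a site.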

How the data were processed

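Single-end 36-bp reads were trimmed (Trimmomatic), aligned (Bowtie, mm10) and used by the authors to call peaks against input (MACS2). Versions, and the treatment of reads with several matches, are not given in the sources used here. The deposited BED file gives interval positions only, with an empty score column, so the values carry no count, signal, fold or p-value, and the depth is unknown. Starts were taken as 0-based and printed 1-based. Sequence came from GRCm38.p6, the build called mm10, and gene starts from GENCODE M21. Motifs were exact matches on both strands. Every member was named and accounted for; the members, the parts and the rule for sequences were chosen with earlier results of these data known. Shares have Wilson 95% intervals (scipy 1.17.1), which cover counting error only. On simulated data, 500 of 500 planted motifs and 1000 of 1000 genes were placed correctly. Each simulated gene had a single transcript start and an isolated peak, so inner transcript starts and close neighbours were not tried. Alternatives covered the distance, transcripts, peak width, assignment and motif. Other tools were Python 3.11.15, numpy 2.4.6, pysam 0.24.0, numba 0.67.0, samtools 1.23.1 and matplotlib 3.10.9.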

Additional observations from a re-analysis of the deposited data

How the results depend on the processing

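The count of 24 import genes with a peak held at 500 bp (background 17.2%), 2000 bp (18.2%) and with protein-coding transcripts only (17.4%). It was 23 with gene starts only (background 16.4% of protein-coding genes), 22 where the peak had to cover a transcript start (without Timm8a1 and Timm9; 13.9%), and 20 both for peaks at or above the median width of 157 bp, where Timm8a1, Timm9, Grpel1 and Mtx3 were lost (14.0%), and for assignment to the nearest gene (3282 of 21938). Outer membrane genes stayed at 10 or 11 of 14, the inner part at 6 to 9 of 16 and the motor and processing at 3 or 4 of 8. The share of peaks with CCGGAAG, 66.7%, was 37.5% for CCGGAAGT (30.5% near protein-coding gene starts) and 79.2% for CGGAAG (76.6%). The median width of 247 bp was 254 bp over the 22 peaks that cover a transcript start. Near protein-coding gene starts the median was 210 bp, and 224 bp over the peaks that cover a transcript start. No paired analysis was possible because there is 1 ChIP library.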

Other observations

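The sequences below were singled out after the values were seen and are given as values. Of the 8 import gene peaks that lacked CCGGAAG, 3 held CGGAAG, here in capitals at the copy nearest the peak midpoint.
Timm17a (chr1:135313767-135313794, plus strand): gatccccgcgaCGGAAGtgatcccaggc
Samm50 (chr15:84192262-84192289, minus strand): gctacaggtcaCGGAAGctgcgtgccga
Tomm6 (chr17:47688077-47688104, minus strand): agtgcggagatCGGAAGttgcgcaatcg
These copies lie at positions -3, 35 and 295 from the gene start.

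The peaks of Tomm40, Tomm5, Timm29, Timm8a1 and Timm9 lacked CGGAAG, and the first 3 held AGGAAGT, shown here with the GGAA core in capitals.
Tomm40 (chr7:19715529-19715556, plus strand): ggagaattagcaGGAAgttccacccttc
Tomm5 (chr4:45108111-45108138, minus strand): aggggtgggacaGGAAgtggagcctggc
Timm29 (chr9:21592853-21592880, minus strand): gcgcaagatacaGGAAgtagtttcccac
AGGAAGT was in 3 of these 5 peaks and in 1 of the other 19 import gene peaks. Among peaks near protein-coding gene starts it was in 23.5% of 808 without CGGAAG (20.7 to 26.6) and 10.7% of 2651 with it, and in 9.34% of all windows from 250 bp before to 50 bp after a protein-coding gene start.

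The copies 3 bp apart at Tomm22 and Timm10 are the overlapping strands of the palindrome CTTCC joined to GGAAG, which was in 2 of 24 import gene peaks (8.33%) and in 48 of 3459 peaks near protein-coding gene starts (1.39%). Tomm7, which lacked a peak, holds the palindromic NRF1 motif (GCGCA joined to TGCGC) at position 9, in capitals below. None of the 24 import gene peaks held it (Wilson upper limit 13.8%), beside 1.76% of the peaks near protein-coding gene starts. It was in 1.22% of the windows from 250 bp before to 50 bp after a protein-coding gene start. With so few peaks, a count of 0 cannot be told apart from these shares.
Tomm7 (chr5:23844138-23844165, plus strand): agaggagctGCGCATGCGCcacgtgggg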
